A study of Homo sapiens with 9 samples.

Results

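RNA of the stable breast cancer cell lines T47D-PA6 and T47D-PA5 was compared directly on 6 single-color microarrays, 3 for each line, out of 9 arrays in the series. T47D is an established human line of luminal, hormone receptor-positive breast cancer cells. T47D-PA6 carries the full-length fragment of PTH-AS, a long noncoding RNA that is read in the opposite direction to PTH, beyond the end of that gene, and T47D-PA5 carries a fragment that lacks a part of the 5′ side of it. Both fragments were in the pTARGET expression vector and both lines were kept under G418 selection, as was T47D-VC1, the empty-vector line. Its 3 arrays are given as a reference level and also enter the estimate of spread behind the limma p-values. Each line is 1 cell population that was picked for high expression after selection, so a difference between the lines cannot be told apart from a difference between the picked cells. The labels do not say whether the 3 replicates of a line are separate cultures, so p-values measure only the spread between these arrays, which may be technical.

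All genes with a usable signal took part. A probe was tested when the scanner software marked it well above background on all 3 arrays of at least 1 of the 2 lines, which 25628 of 58201 probes did, and they stand for 19719 of 43369 genes on the array. On single arrays 44.0% to 48.0% of the probes were well above background, and 0 spots were saturated. Signals below are the quantile-normalized intensities that the authors deposited, given for replicates 1, 2 and 3 of a line in that order, and a log2 difference is T47D-PA6 minus T47D-PA5. Replicate 1 of each line was on slide 1 and read in the earlier scan run, and it stood apart: replicates 2 and 3 differed by a median of 0.08 to 0.11 log2 units in each line, and replicate 1 differed from them by 0.21 to 0.27. Both lines had replicate 1 on slide 1, so values within that slide and within slide 3 (replicate 3 of T47D-PA5, replicates 2 and 3 of T47D-PA6) are given beside the main results.

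The cells carried the markers of their labelled origin. All 12 luminal epithelial markers, such as GATA3, FOXA1, ESR1 and EPCAM, passed the background mark on all 6 arrays, and their summed signal was 619279 to 636727 in T47D-PA5 and 618761 to 635206 in T47D-PA6. Of 9 fibroblast markers 6 were not well above background on any of the 6 arrays, including COL1A2, COL3A1, DCN and PDGFRA. The same held for CD3E and CSF1R among 7 leukocyte markers, for 4 of 6 endothelial and 3 of 5 adipocyte markers, and for KRT5 and TP63 among 8 basal markers. Other members of these lists were expressed. On all 3 arrays of each line 3 basal, 3 leukocyte, 2 fibroblast, 2 endothelial and 1 adipocyte marker were well above background. In RNA from whole cultures, fewer cells of a kind and less RNA per cell cannot be told apart.

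PTH itself was not tested. Its signal was 2.55, 2.49 and 3.38 in T47D-PA5 and 2.53, 3.95 and 2.48 in T47D-PA6, and it was well above background on 0 of the 9 arrays. The level of PTH-AS was not analysed here.

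The lines differed at 2002 genes (limma, adjusted p under 0.05), which is 10.2% of those tested. In T47D-PA6 743 genes were higher, 3.77% of those tested, and 1259 were lower, 6.38%. The rises were the larger changes: the median rise was 0.93 and the median fall -0.78 on the log2 scale, and 44 rises but 16 falls were above 8-fold. For 2001 of the called genes the 3 arrays of one line all lay above the 3 of the other, where 33.1% of all tested genes had no overlap. For 2001 the difference had the same sign on slide 1 and on slide 3. The second count follows from the first, because a gene with no overlap has the same sign on both slides, so it is no separate support. The exception to the first, KYNU, had signals of 851, 457 and 527 in T47D-PA5 and 846, 1909.8 and 1885 in T47D-PA6. The median over all genes tested was -0.0024, which quantile normalization holds near 0, so these values cannot show a shift of all genes. By size alone, with no test, 528 genes had a ratio of line means above 2 and 1043 one below 0.6, together 7.97% of those tested. The number of calls depended on single arrays: it was 749 without replicate 2 of T47D-PA6, 763 without replicate 3 of T47D-PA6, 872 without replicate 2 of T47D-PA5 and 786 without replicate 3 of T47D-PA5.

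**Figure D1:**
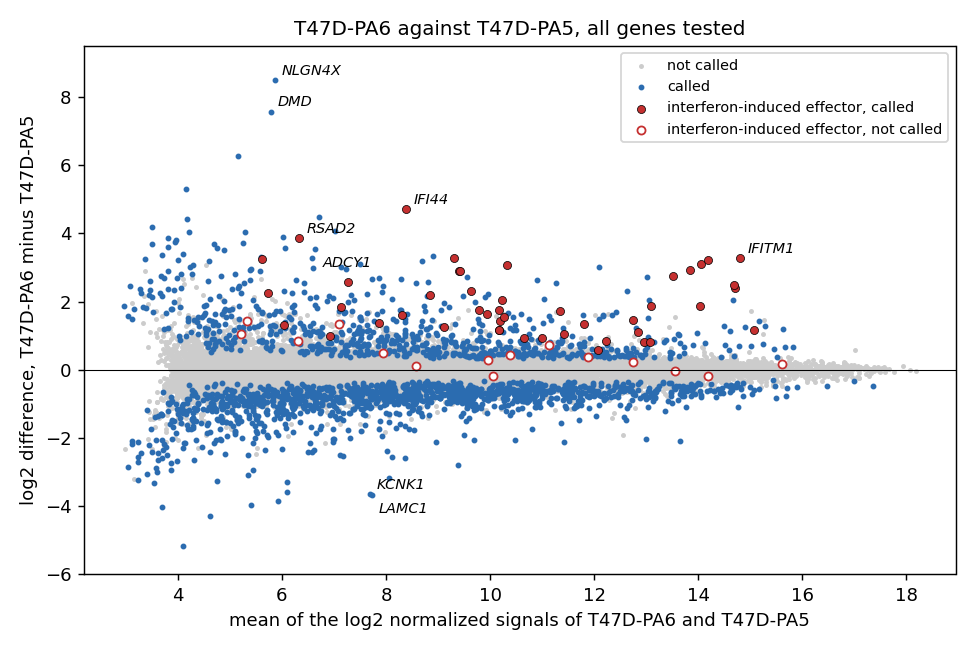
Log2 difference between T47D-PA6 and T47D-PA5 (vertical axis) against the mean of the log2 normalized signals of both lines (horizontal axis) for the 19719 genes tested, 1 point per gene. Blue points passed the test, gray points did not, and red circles are the interferon-induced effectors, filled for the 46 that passed and open for the 15 that did not. The filled red circles all lie above 0, over the whole range of signals.

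Interferon-induced genes made up the most coherent group. Interferons are secreted antiviral cytokines: type I and type III interferons bind their receptor chains, JAK kinases phosphorylate STAT proteins, and these join IRF9 in the complex ISGF3. ISGF3 binds a DNA element, the interferon-stimulated response element (ISRE), in front of the genes of antiviral effectors, which block viral RNA, proteins and budding. STAT2 and IRF9 are themselves interferon-induced. Breast cancer cells can express these genes without infection.

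The ISRE core is shown for the effectors that lead the rises. Of the 10 largest rises among genes well above background on all 6 arrays, 6 were interferon-induced effectors (IFI44, LAMP3, IFITM1, ISG15, IFI27 and OASL), and 4 of these have a RefSeq promoter window, which runs from 250 bases before to 50 bases after the gene start. All 4 windows hold the core GAAANNGAAA, or TTTCNNTTTC when it is on the other strand, before the start. The stretches of 60 bases below are RefSeq sequence of GRCh38.p14, 5′ to 3′ on the strand of the gene, and capitals mark the core, overlapping matches included. They lie at chr1:78649729-78649788 on the plus strand for IFI44, chr11:313975-314034 on the plus strand for IFITM1, chr1:1013365-1013424 on the plus strand for ISG15 and chr14:94110616-94110675 on the plus strand for IFI27.
IFI44: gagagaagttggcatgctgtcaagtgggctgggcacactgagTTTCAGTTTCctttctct
IFITM1: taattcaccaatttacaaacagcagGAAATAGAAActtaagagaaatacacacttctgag
ISG15: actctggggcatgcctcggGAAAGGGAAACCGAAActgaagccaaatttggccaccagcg
IFI27: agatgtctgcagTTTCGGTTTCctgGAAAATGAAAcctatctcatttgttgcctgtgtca
IFI44 and IFITM1 have 1 core each before the start, and ISG15 and IFI27 have 2. A core starts 18 bases before the gene start in IFI44, 40 bases in IFITM1 and 95 bases in IFI27. Over all 27305 RefSeq promoter windows of 300 bases, 3.65% hold this core on either strand, 7.88% hold the core of the gamma-activated site, TTCNNNGAA, and 0.0659% hold the estrogen response element GGTCANNNTGACC. A window was found for 35 of the 46 effectors that rose and for 459 of the 743 genes that rose, under 80% of either set, so a comparison of these shares between gene sets is void and none was made. A match describes the letters only and does not show that a factor binds.

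The antiviral effectors rose together. Of 61 tested of the 64 listed, 46 were higher in T47D-PA6 and 0 were lower, against 3.77% and 6.38% of all genes; at an unadjusted limma p under 0.05, 55 were higher and 0 lower. Their median log2 difference was 1.44, where that of all genes was -0.0024, and 58 of 61 were above 0. Of the 46 that rose 39 did so by more than 2-fold and 19 by more than 4-fold, with no overlap between the arrays of the lines for any of the 46. The lack of overlap adds little to the call, since 2001 of all 2002 called genes had none, and 33.1% of all genes tested. By the methods' t-test with Benjamini-Hochberg adjustment, which takes each gene's spread from its own 6 arrays, 4 were higher and 1 was lower. The list was drawn up with earlier results of these arrays known, so its direction is a description.

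IFI44, which is thought to restrain virus replication, had the largest rise of the genes measured on all 6 arrays. Its signals (probe at chr1:79128479-79128538, hg19) were 23.6, 116 and 103 in T47D-PA5 and 639.6, 2875 and 2710.2 in T47D-PA6. All 3 arrays of T47D-PA6 lay above all 3 of T47D-PA5, and on both lines replicate 1 was the lowest. The fold was 26.1; the log2 difference was 4.70 ± 0.81 (SE, n = 3 arrays per line, limma adjusted p = 0.01), 4.76 within slide 1 and 4.76 within slide 3. ISG15, a ubiquitin-like protein that is attached to viral and host proteins, had signals of 3001, 9074 and 8253 in T47D-PA5 and 47745, 61086 and 63741 in T47D-PA6 (chr1:949567-949626). The lines were well apart, and again replicate 1 of T47D-PA5 was the lowest array. For ISG15 the log2 difference was 3.23 ± 0.43 (SE, n = 3 arrays per line, limma adjusted p = 0.0047), a 9.39-fold rise.

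IFITM1, which blocks the entry of viruses at the membrane, had signals of 3557, 16046 and 13838 in T47D-PA5 and 70852, 101481 and 98242 in T47D-PA6 (chr11:315209-315268); its log2 difference was 3.27 ± 0.50 (adjusted p = 0.0068). OASL, which enhances RNA sensing, had signals of 202, 648 and 651 in T47D-PA5 and 2796, 4282 and 4254 in T47D-PA6, a log2 difference of 3.07 ± 0.48 (adjusted p = 0.0073). LAMP3, a lysosomal membrane protein, was even within T47D-PA5: its signals were 202, 204 and 202 in T47D-PA5 and 1191, 2596 and 2491 in T47D-PA6 (3.28 ± 0.30, adjusted p = 0.0013). In each of these 3 genes the arrays of the lines did not overlap, and no single array left out ended the call. RSAD2 (viperin), an enzyme that makes a chain-terminating nucleotide, was well above background on 2 of 3 arrays of T47D-PA5; its signals were 9.70, 25.5 and 38.1 in T47D-PA5 and 182, 402 and 388 in T47D-PA6. Its log2 difference of 3.85 (adjusted p = 0.01) is, after that of IFI44, the largest of the effectors.

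IFI27, a mitochondrial and nuclear interferon-induced protein, showed how far the spread within T47D-PA5 can reach. Its signals were 1448, 12019 and 11022 in T47D-PA5 and 58576, 54047 and 39339 in T47D-PA6, so replicate 1 of T47D-PA5 lay far below replicates 2 and 3, while all T47D-PA6 arrays were high. Its log2 difference was 3.11 ± 0.72 (adjusted p = 0.031), 5.34 within slide 1 and 2.06 within slide 3. IFI27 lost the call without any replicate of T47D-PA6 (adjusted p up to 0.1).

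Across the whole list the arrays kept this order. Relative to the mean of T47D-PA5, the median effector stood at -0.59, 0.31 and 0.26 log2 units on the 3 arrays of T47D-PA5 and at 1.30, 1.51 and 1.55 on those of T47D-PA6, and at -1.30, -1.18 and -1.51 on the empty-vector arrays. The spread of T47D-PA5 comes from replicate 1, and no array of T47D-PA5 reached one of T47D-PA6. Within slide 1 the median difference of the effectors was 1.86 with 60 of 61 above 0, and within slide 3 it was 1.28 with 57 of 61 above 0. Against the empty vector, whose arrays both comparisons share, the median effector was 3.0 higher in T47D-PA6 and 1.39 higher in T47D-PA5. The count that rose was 25 without replicate 2 and 25 without replicate 3 of T47D-PA6, and 35 to 48 without any other single array. In a fit without the empty-vector arrays it was 35.

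The 15 effectors that were not called were also mostly higher. Of these 12 were above 0 and in 9 the arrays of the lines did not overlap, where 33.1% of all genes tested had no overlap in either direction. They include the GTPase MX2 at 0.48 (adjusted p = 0.18), the translation-blocking SAMD9 at 1.04 (adjusted p = 0.23), EPSTI1 at 1.44 (adjusted p = 0.08) and IFI35 at 0.72 (adjusted p = 0.071). At or below 0 stood the RNA-editing enzyme ADAR at -0.02, the nuclear body protein SP100 at -0.18 and TDRD7 at -0.17, with adjusted p of 0.92, 0.47 and 0.67. TDRD7 lies in a stretch of chromosome 9 described below. It was lower in the later scan run alone, by -0.46 with a limma adjusted p of 0.0042. That run holds replicates 2 and 3 of each line, the empty vector included.

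**Figure D2:**
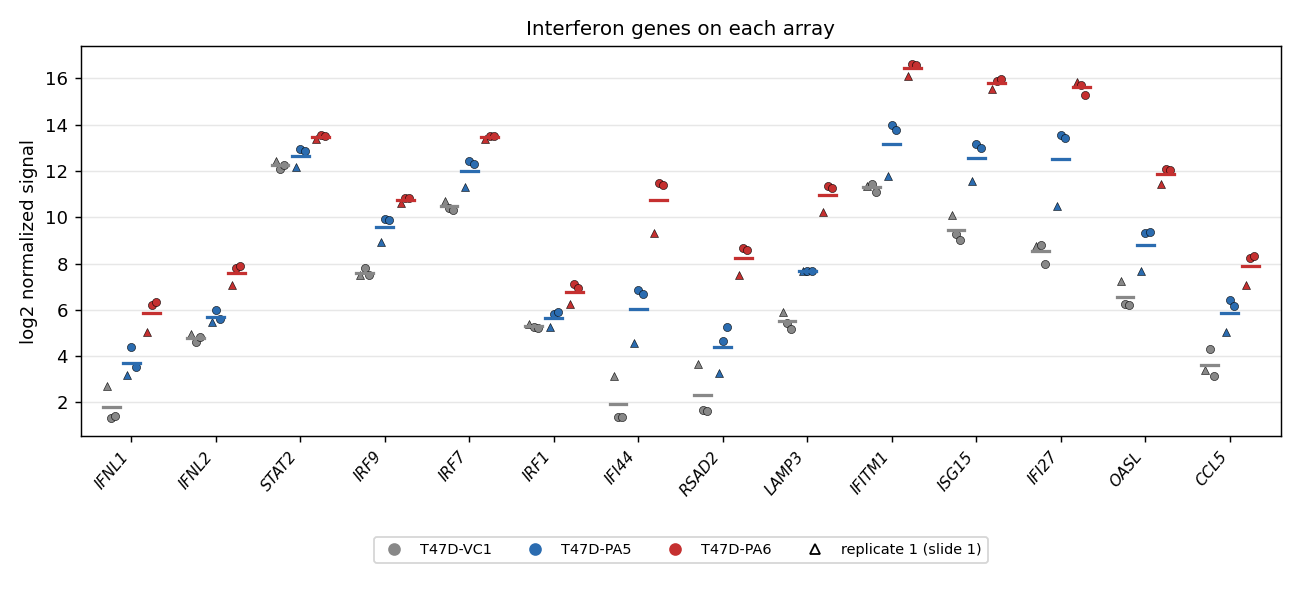
Log2 normalized signal (vertical axis) of 14 interferon genes on each of the 9 arrays, with the mean of each line as a bar; triangles are replicate 1 of a line. In every gene shown the 3 red points of T47D-PA6 lie above the 3 blue points of T47D-PA5, and in IFI27 and IFI44 the replicate 1 triangle of T47D-PA5 lies far below the other 2.

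The transducers of the signal rose less than the effectors. IRF9, the DNA-binding part of ISGF3, had signals of 489, 983 and 952 in T47D-PA5 and 1566, 1812 and 1844 in T47D-PA6 (chr14:24635500-24635559), a log2 difference of 1.17 ± 0.25 (adjusted p = 0.024). STAT2, which ISGF3 also holds, had signals of 4668, 7809 and 7430.3 in T47D-PA5 and 10712, 11861 and 11655 in T47D-PA6, a log2 difference of 0.82 ± 0.20 (adjusted p = 0.034). The lines did not overlap in either gene. Of 19 tested genes for JAK and STAT components and feedback regulators 4 rose and 0 fell (21.1% called, against 10.2% of all genes). They include USP18 (1.17, adjusted p = 0.0017), an inhibitor of the type I receptor that is also counted among the effectors. The median of these 19 was 0.04, and at an unadjusted p under 0.05 there were 4 higher and 1 lower. IRF9 lost the call without replicate 2 or 3 of T47D-PA6 (adjusted p up to 0.088), and also with the mean of its tested probes. STAT2 lost the call without replicate 3 of T47D-PA5 or the empty vector, or replicate 2 or 3 of T47D-PA6 (adjusted p up to 0.12).

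Of 15 listed interferon ligands and receptor chains 14 were on the array and 8 were tested. Of these 8, 3 rose and 0 fell (37.5% called, against 10.2% of all genes). IFNL1, a type III interferon, had signals of 9.06, 21.3 and 11.5 in T47D-PA5 and 33.3, 73.1 and 82.1 in T47D-PA6, higher on every T47D-PA6 array; it was well above background on 2 arrays of T47D-PA5. Its log2 difference was 2.16 (adjusted p = 0.029, and 0.05 with replicate number as a block). IFNL2, whose probe may also read its near-identical neighbour IFNL3 and is uncertain for that reason, had signals of 44.8, 63.5 and 48.6 in T47D-PA5 and 133, 222 and 236 in T47D-PA6, a log2 difference of 1.89 (adjusted p = 0.0034). The receptor chain for type II interferon, IFNGR1, rose by 0.46 (adjusted p = 0.036). IFNL1 lost the call without replicate 1 or 3 of T47D-PA5, or replicate 2 or 3 of T47D-PA6 (adjusted p up to 0.11). IFNGR1 lost the call without any replicate of T47D-PA5, or replicate 2 or 3 of T47D-PA6 or the empty vector (adjusted p up to 0.14).

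Among 7 tested interferon regulatory factors 3 rose and 1 fell (57.1% called, against 10.2% of all genes). IRF7, which drives a second round of interferon genes, had signals of 2518, 5504 and 5039.5 in T47D-PA5 and 10689, 11716 and 11754 in T47D-PA6, with a log2 difference of 1.47 ± 0.27 (adjusted p = 0.014). IRF1, a factor induced by interferon gamma, had signals of 38.4, 55.8 and 59.2 in T47D-PA5 and 75.3, 137 and 125 in T47D-PA6, with a log2 difference of 1.11 ± 0.24 (adjusted p = 0.025). The lines did not overlap in either gene. IRF7 lost the call without replicate 2 or 3 of T47D-PA6 (adjusted p up to 0.056). IRF1 lost the call without any replicate of T47D-PA5, or replicate 2 or 3 of T47D-PA6 (adjusted p up to 0.097).

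Of 14 tested genes for the sensing of foreign nucleic acid 4 rose and 2 fell (42.9% called, against 10.2% of all genes). The RNA sensors IFIH1 (1.49, adjusted p = 0.008) and RIGI (1.45, adjusted p = 0.01), the DNA-sensing adaptor STING1 (1.08, adjusted p = 0.0038) and the receptor adaptor MYD88 (0.40, adjusted p = 0.032) rose. IFIH1 (MDA5) had signals of 717, 1252 and 1216 in T47D-PA5 and 2205, 3291 and 3302 in T47D-PA6, with no overlap. The kinase IKBKE (-1.39, adjusted p = 0.0021) fell and lies in a stretch of chromosome 1 described below. IKBKE had signals of 66.96, 52.6 and 52.7 in T47D-PA5 and 20.7, 24.97 and 19.98 in T47D-PA6. MYD88 lost the call without any replicate of T47D-PA5, or replicate 2 or 3 of T47D-PA6, or replicate 3 of the empty vector (adjusted p up to 0.12).

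Genes of class I antigen presentation were among the rises. Of 22 tested 10 were higher and 0 lower, 45.5% against 3.77% of all genes, with a median of 0.53; at an unadjusted p under 0.05 there were 12 higher and 1 lower, and by the methods' t-test, adjusted, 1 and 0. They cover the heavy chains (HLA-B, HLA-C, HLA-F and HLA-G among them), the peptide transporter (TAP1 and TAP2) and the immunoproteasome (PSMB8, PSMB9 and PSME1). The class I heavy chains are alike in sequence, so their probes may read one another and the single genes are uncertain. HLA-F had signals of 9356, 19913 and 16858 in T47D-PA5 and 24538, 43689 and 43448 in T47D-PA6, a log2 difference of 1.30 ± 0.32 (adjusted p = 0.038). PSMB8, a catalytic subunit of the immunoproteasome, kept its call without any 1 array, and its signals were 686, 928 and 1026 in T47D-PA5 and 1752, 2407 and 1992 in T47D-PA6 (1.23 ± 0.17, adjusted p = 0.0053). Within slide 1 the median of the 22 genes was 0.74 and within slide 3 it was 0.36. HLA-F and PSME1 lost their calls without any replicate of T47D-PA5, or replicate 2 or 3 of T47D-PA6 or the empty vector (adjusted p up to 0.14). HLA-G lost the call without replicate 3 of T47D-PA5, or replicate 2 or 3 of T47D-PA6 (adjusted p up to 0.1). HLA-B lost the call without replicate 3 of T47D-PA5, or replicate 2 of T47D-PA6 (adjusted p up to 0.064). HLA-C lost the call without replicate 2 or 3 of T47D-PA5, or any replicate of T47D-PA6 (adjusted p up to 0.1). TAP1 lost the call without replicate 2 or 3 of T47D-PA6 (adjusted p up to 0.052).

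No class II gene was called higher, and the share called was 8.33%, against 10.2% of all genes. Of 12 tested genes 0 were higher and 1 was lower, HLA-DQA1, with signals of 38.2, 25.6 and 26.99 in T47D-PA5 and 10.9, 3.12 and 5.84 in T47D-PA6; at an unadjusted p under 0.05, 1 was higher and 1 lower. HLA-DQA1 passed the background mark on no T47D-PA6 array, a fall of at least 2.55-fold (adjusted p = 0.036, 0.064 with the block). Their median was 0.78 within slide 1 and -0.41 within slide 3, so the direction of this list differs between the slides. Of 4 tested guanylate-binding proteins and APOBEC3 enzymes 1 rose, GBP4 (0.69, adjusted p = 0.021). HLA-DQA1 lost the call without any replicate of T47D-PA5, or replicate 2 or 3 of T47D-PA6, or replicate 3 of the empty vector (adjusted p up to 0.12). GBP4 lost the call without replicate 3 of T47D-PA5, or replicate 2 or 3 of T47D-PA6 (adjusted p up to 0.088).

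Secreted and inflammatory genes were mixed. CCL5, a chemokine that draws T cells and monocytes, had signals of 32.7, 85.7 and 71.5 in T47D-PA5 and 133, 300.4 and 324 in T47D-PA6 (chr17:34199332-34199391) with no overlap between the lines. Its log2 difference was 2.0 ± 0.48 (adjusted p = 0.033). Of 10 tested chemokines and receptors it was the 1 that rose, and the mucosal chemokine CCL28 (-2.59, adjusted p = 0.016) and the neutrophil chemokine CXCL1 fell. CXCL1 passed the background mark on no T47D-PA6 array, a fall of at least 1.76-fold (adjusted p = 0.043, 0.067 with the block). CFB, the complement factor of the alternative pathway, had signals of 43.5, 105 and 95.4 in T47D-PA5 and 282, 416 and 347 in T47D-PA6, a log2 difference of 2.18 ± 0.33 (adjusted p = 0.0065). Of 13 tested complement genes C4B (1.07, adjusted p = 0.0053) also rose, and C5 (-1.85, adjusted p = 0.0086) and the regulator CD46 (-0.71, adjusted p = 0.0041) fell. CD46 lies in the stretch of chromosome 1 described below. Among the complement genes 30.8% were called, against 10.2% of all genes. Of 15 tested NF-kB subunits and targets 1 rose, the adhesion molecule ICAM1 (0.74, adjusted p = 0.0077), and 0 fell, a share of 6.67% against 10.2% of all genes. CCL5 lost the call without any replicate of T47D-PA5, or replicate 2 or 3 of T47D-PA6 (adjusted p up to 0.12). CCL28 lost the call without replicate 2 or 3 of T47D-PA5 or T47D-PA6 (adjusted p up to 0.063). CXCL1 lost the call without any replicate of T47D-PA5, or replicate 1 or 2 of T47D-PA6, or replicate 1 of the empty vector (adjusted p up to 0.12).

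The largest differences of all were not interferon genes. NLGN4X, a neuronal adhesion molecule, had signals of 3.14, 3.05 and 2.998 in T47D-PA5 and 826, 1227 and 1309 in T47D-PA6 (chrX:5810246-5810305). The scanner software marked it above background on every T47D-PA6 array and on no array of T47D-PA5, a rise of at least 84.03-fold (adjusted p = 6e-05); the probe may also read close paralogs. DMD, the gene of the cytoskeletal protein dystrophin, had signals of 2.68, 2.66 and 8.93 in T47D-PA5 and 519.6, 905 and 920.2 in T47D-PA6 (chrX:31137349-31137408), a rise of at least 57.8-fold (adjusted p = 0.00015). In DMD it was T47D-PA5 that stood apart: the empty-vector arrays had 762, 871 and 844, close to T47D-PA6.

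NNMT, which methylates nicotinamide, had signals of 2.69, 2.72 and 8.89 in T47D-PA5 and 201, 394 and 389.8 in T47D-PA6, a rise of at least 23.98-fold (adjusted p = 0.0028). CLEC3A, a cartilage lectin, had signals of 17.5, 8.73 and 6.02 in T47D-PA5 and 350.4, 106 and 109 in T47D-PA6, at least 11.6-fold (adjusted p = 0.014). Both were below background in T47D-PA5 on all arrays. Each bound divides the mean of the brighter line by a floor for the dimmer one, array by array the dimmest signal that the scanner software still marked, or the probe's own signal where that was greater. In all, 57 of the genes that rose were unmarked on all arrays of T47D-PA5, and 53 of those that fell on all arrays of T47D-PA6. CLEC3A lost the call without replicate 2 or 3 of T47D-PA5 (adjusted p up to 0.06).

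Of the 10 largest rises among genes measured on all 6 arrays, 4 were not interferon effectors. ADCY1, an adenylyl cyclase that makes cyclic AMP, had signals of 35.6, 32.3 and 21.2 in T47D-PA5 and 213, 446 and 416 in T47D-PA6 (chr7:45762328-45762385). All T47D-PA6 arrays were higher, at a 11.8-fold rise; the log2 difference was 3.56 ± 0.30 (SE, n = 3 arrays per line, limma adjusted p = 0.0009). BDKRB1, the inducible bradykinin receptor, had signals of 29.01, 37.5 and 26.7 in T47D-PA5 and 171, 393 and 393 in T47D-PA6, a log2 difference of 3.28 ± 0.35 (adjusted p = 0.0021). CD36, a fatty acid transporter and thrombospondin receptor, had signals of 156, 136 and 118 in T47D-PA5 and 2049, 957 and 994 in T47D-PA6, a log2 difference of 3.20 ± 0.28 (adjusted p = 0.00099). CRH, the corticotropin-releasing hormone, had signals of 217, 124 and 127 in T47D-PA5 and 1577, 1470.4 and 1535 in T47D-PA6, a log2 difference of 3.34 ± 0.62 (adjusted p = 0.014). In CRH the empty-vector arrays, at 2759, 468 and 448, were far from even, with replicate 1 above both lines' values and the others between the lines. ADCY1, BDKRB1 and CD36 kept their calls without any 1 array. CRH lost the call without replicate 2 or 3 of T47D-PA5 or T47D-PA6 (adjusted p up to 0.058).

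Several of the largest falls were in genes of the matrix and of adhesion. LAMC1, the gamma chain of most laminins of basement membranes, had signals of 730.4, 765 and 784 in T47D-PA5 and 185, 34.02 and 32.6 in T47D-PA6 (chr1:183114406-183114465). Every T47D-PA6 array was lower, replicate 1 less so than the others; the log2 difference was -3.69 ± 0.59 (SE, n = 3 arrays per line, limma adjusted p = 0.008). VCAN, the matrix proteoglycan versican, had signals of 262, 174 and 196 in T47D-PA5 and 46.4, 41.2 and 31.04 in T47D-PA6, a log2 difference of -2.41 ± 0.26 (adjusted p = 0.0021). ADGRL2, an adhesion receptor of the latrophilin family, had a log2 difference of -2.41 ± 0.26 (adjusted p = 0.0021).

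KCNK1, a 2-pore potassium channel, had signals of 691, 742 and 759 in T47D-PA5 and 110.01, 48.3 and 37.1 in T47D-PA6 (chr1:233807558-233807617), and the log2 difference was -3.65 ± 0.34 (SE, n = 3 arrays per line, limma adjusted p = 0.0014). FSIP1, a fibrous sheath-interacting protein, had signals of 885, 746 and 760.5 in T47D-PA5 and 135, 74.8 and 68.1 in T47D-PA6 (chr15:39893077-39909944), with a log2 difference of -3.17 ± 0.24 (adjusted p = 0.00055). In both genes the T47D-PA6 arrays were far below and the empty-vector arrays, at 496, 551 and 525 and 564, 674 and 601, were nearer to T47D-PA5. The 10 largest falls also held the membrane protein ITM2A (-2.79, adjusted p = 0.012), CCL28 and the nuclear import receptor IPO9 (-2.50, adjusted p = 0.0021). LAMC1, KCNK1 and IPO9 lie in the stretch of chromosome 1 described below. ITM2A lost the call without replicate 3 of T47D-PA5 or T47D-PA6 (adjusted p up to 0.053).

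Genes below background in T47D-PA6 gave bounds only. PHYHD1, a dioxygenase, had signals of 111, 111 and 106 in T47D-PA5 and 14.3, 2.85 and 4.16 in T47D-PA6, a fall of at least 9.38-fold (adjusted p = 0.0025). GAGE1, a cancer-testis antigen whose family members are near-identical and cannot be told apart by a probe, had signals of 119, 97.2 and 93.9 in T47D-PA5 and 2.88, 2.84 and 2.87 in T47D-PA6, at least 8.82-fold (adjusted p = 2.2e-07). For both genes the empty-vector arrays, at 2.90, 2.88 and 2.87 and 2.88, 2.86 and 2.86, were as low as T47D-PA6. NMNAT2, a neuronal enzyme of NAD synthesis, fell by at least 4.29-fold, CSTL1 by at least 4.20-fold and the protease inhibitor CST6 by at least 3.53-fold. NMNAT2 lies in the stretch of chromosome 1 described below.

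**Figure D3:**
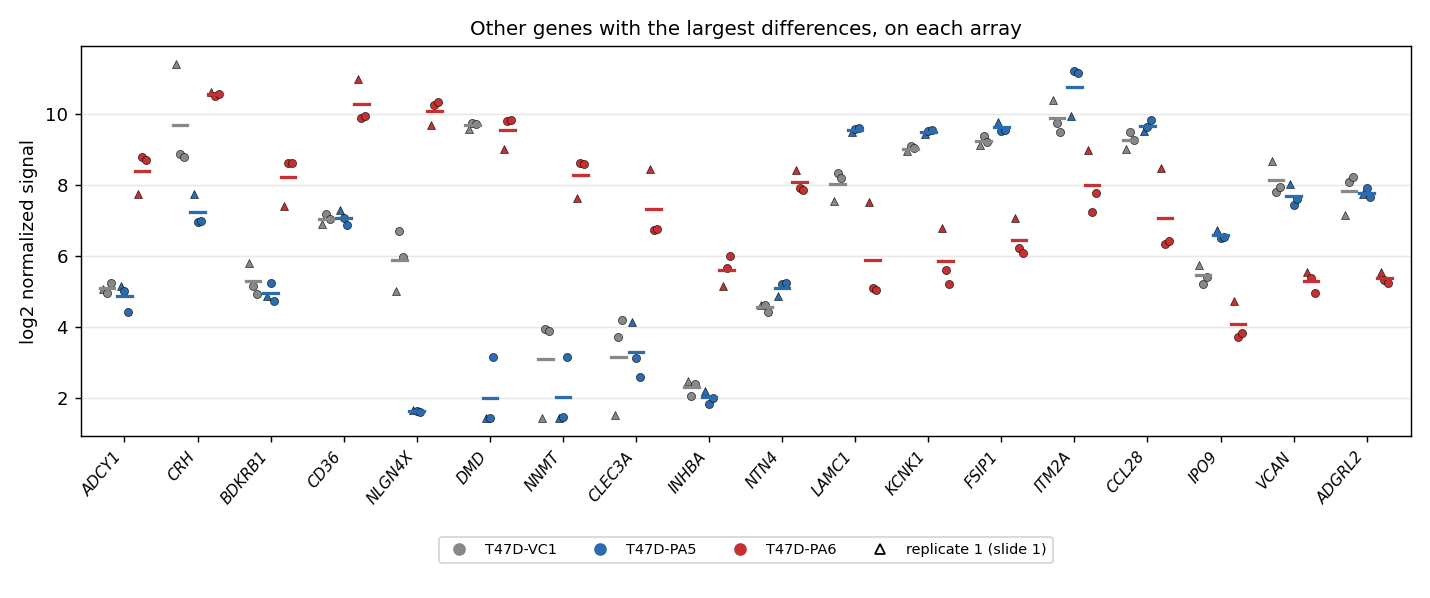
Log2 normalized signal (vertical axis) on each of the 9 arrays for genes outside the interferon list: from the left, 10 genes that rose in T47D-PA6 and 8 that fell. Bars are the means of 3 arrays and triangles are replicate 1; in DMD the gray empty-vector points lie nearer to one line, and in NLGN4X they lie between the lines.

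Adhesion and guidance genes changed in both directions. The share called was 32.0% of integrins and laminins, 14.3% of cadherins and synaptic adhesion molecules and 20.9% of guidance genes. Over all genes it was 10.2%. Of 25 tested integrins and laminins 2 rose and 6 fell, and LAMC1, ITGAV, ITGAL (-0.79, adjusted p = 0.024), ITGB4 (-0.70, adjusted p = 0.019) and LAMA3 were among the 6. Of 21 tested cadherins and synaptic adhesion molecules NLGN4X rose, and CNTNAP2 (-2.16, adjusted p = 0.041) and CDH10 fell. CDH10, a neuronal cadherin, had signals of 1539, 844 and 842 in T47D-PA5 and 248, 218 and 249 in T47D-PA6, with no overlap (-2.12 ± 0.23, adjusted p = 0.0021), and 98.9, 118 and 123 with the empty vector. Among 43 semaphorins, plexins, ephrins, netrins and their receptors 4 rose and 5 fell. NTN4, a laminin-related netrin, had signals of 29.2, 36.6 and 37.4 in T47D-PA5 and 346, 243 and 234 in T47D-PA6, 7.89-fold higher in T47D-PA6 (2.98 ± 0.17, adjusted p = 0.00015). The netrin receptor UNC5B (1.74, adjusted p = 0.015) and the ephrin EFNB3 (1.39, adjusted p = 0.013) rose as well, while the Slit receptor ROBO2 (-2.46, adjusted p = 0.037) fell. ITGAL, ITGB4, UNC5B and ITGAV lost their calls without replicate 2 or 3 of T47D-PA5 or T47D-PA6 (adjusted p up to 0.092). CNTNAP2, ROBO2 and LAMA3 lost their calls without any replicate of T47D-PA5, or replicate 2 or 3 of T47D-PA6 or the empty vector (adjusted p up to 0.15). EFNB3 lost the call without replicate 2 of T47D-PA6 (adjusted p = 0.053).

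Matrix genes changed in both directions. Of 19 tested collagens 0 rose and 2 fell, 10.5% against the 10.2% of all genes. COL12A1, a collagen that bridges fibrils, had signals of 7285, 5409.6 and 4789 in T47D-PA5 and 2192, 966 and 1086 in T47D-PA6, a log2 difference of -2.12 ± 0.36 (adjusted p = 0.0095); the other was COL5A2 (-0.76, adjusted p = 0.038). Of 32 tested proteoglycans and matrix glycoproteins 2 rose and 3 fell, 15.6%. SPARC, a collagen-binding glycoprotein, had signals of 6.45, 11.2 and 7.25 in T47D-PA5 and 40.9, 103 and 94.9 in T47D-PA6 and was below background in T47D-PA5, a rise of at least 5.62-fold (adjusted p = 0.0023). Beside VCAN, the glypican GPC6 (-0.95, adjusted p = 0.0078) and the thrombospondin THBS1 (-0.95, adjusted p = 0.035) fell. Among 23 proteases and inhibitors 2 rose and 2 fell, 17.4%. SERPINE2, a thrombin and plasminogen activator inhibitor, had signals of 7.98, 2.79 and 2.89 in T47D-PA5 and 30.7, 48.97 and 47.7 in T47D-PA6, at least 3.18-fold higher (adjusted p = 0.0028), and ADAM10 (0.34, adjusted p = 0.033) rose. CTSK (-1.60, adjusted p = 0.0046) and ADAM19 (-1.70, adjusted p = 0.043) fell, the first in the chromosome 1 stretch and the second with an adjusted p of 0.058 with the block. COL5A2, THBS1 and ADAM10 lost their calls without any replicate of T47D-PA5, or replicate 2 or 3 of T47D-PA6 or the empty vector (adjusted p up to 0.14). ADAM19 lost the call without any 1 of the 9 arrays, whichever it was (adjusted p up to 0.11).

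In the TGF-beta, activin and BMP system 10 of 43 tested genes rose and 2 fell (27.9% called, against 10.2% of all genes), with a median of 0.11. The activin subunits were among the ligands. INHBA had signals of 4.57, 3.55 and 3.99 in T47D-PA5 and 35.4, 50.9 and 63.7 in T47D-PA6, a rise of at least 3.72-fold from a level below background (adjusted p = 0.00015), and INHBE had 38.4, 9.02 and 11.8 in T47D-PA5 and 73.4, 106 and 104 in T47D-PA6 (2.54, adjusted p = 0.019). Among receptors, the type I receptor ACVR1C had signals of 6.65, 3.19 and 6.86 in T47D-PA5 and 22.02, 50.8 and 34.3 in T47D-PA6, at least 2.58-fold higher (adjusted p = 0.0053), and the co-receptor TGFBR3 (1.69, adjusted p = 0.01) rose while TGFBR1 (-1.28, adjusted p = 0.036), in the chromosome 9 stretch, fell. The BMP targets ID1 (1.62, adjusted p = 0.026), ID3 (1.31, adjusted p = 0.029) and BAMBI (1.56, adjusted p = 0.0028) and the ligands BMP4 (1.12, adjusted p = 0.023) and GDF15 (1.53, adjusted p = 0.04) rose as well. The median of this list was -0.11 within slide 1 and 0.22 within slide 3, so the list's direction differs between the slides. INHBE and ID1 lost their calls without replicate 2 or 3 of T47D-PA5 or T47D-PA6 (adjusted p up to 0.094). TGFBR1 lost the call without any replicate of T47D-PA5 or T47D-PA6 (adjusted p up to 0.12). ID3 lost the call without replicate 2 or 3 of T47D-PA5 or T47D-PA6, or replicate 3 of the empty vector (adjusted p up to 0.1). BMP4 lost the call without replicate 3 of T47D-PA5, or replicate 2 or 3 of T47D-PA6 (adjusted p up to 0.092). GDF15 lost the call without replicate 2 or 3 of T47D-PA5, or any replicate of T47D-PA6 (adjusted p up to 0.13).

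Other growth factor systems changed at single genes. The share called was 37.5% for FGF, 14.3% for insulin-like growth factor, 11.1% for ERBB and 10.3% for WNT genes. It was 15.8% for Notch genes, 14.8% for cyclic AMP genes and 24.2% for potassium channels. Over all genes it was 10.2%, so the ERBB and WNT shares were near that of all genes. FGFBP1, which releases FGFs from the matrix, had signals of 14.5, 21.2 and 22.9 in T47D-PA5 and 86.0, 347 and 403 in T47D-PA6, a log2 difference of 3.58 ± 0.51 (adjusted p = 0.0056), and the receptors FGFR3 (-1.13, adjusted p = 0.0065) and FGFR4 (-0.80, adjusted p = 0.014) fell, of 8 tested. IGFBP7, an insulin-like growth factor-binding protein, had signals of 122, 81.3 and 78.7 in T47D-PA5 and 399, 682 and 759 in T47D-PA6, with a log2 difference of 2.68 ± 0.30 (adjusted p = 0.0023), and the ligand IGF2 (-1.03, adjusted p = 0.0081) fell, of 14 tested. The ERBB ligand TGFA (0.64, adjusted p = 0.014) rose, 1 of 9 tested. Of 29 WNT genes WNT4 (1.01, adjusted p = 0.0081) rose and the receptors FZD1 (-0.52, adjusted p = 0.019) and FZD9 (-0.44, adjusted p = 0.046) fell, and of 19 Notch genes the glycosyltransferase MFNG (1.20, adjusted p = 0.014) rose and the targets HEY2 (-1.46, adjusted p = 0.02) and NRARP (-0.50, adjusted p = 0.01) fell. FGFBP1, IGFBP7, IGF2, FGFR3 and WNT4 kept their calls without any 1 array. Beside ADCY1, the phosphodiesterase PDE2A (1.29, adjusted p = 0.023) rose, and the protein kinase A subunits PRKACB (-0.75, adjusted p = 0.045) and PRKAR1A (-0.42, adjusted p = 0.038) fell, of 27 tested genes of cyclic AMP signaling. Of 33 tested potassium channels 3 rose and 5 fell, and after KCNK1 the largest differences were in KCNMA1 (-1.81, adjusted p = 0.044), KCNN2 (1.44, adjusted p = 0.0036) and KCNS3 (-1.42, adjusted p = 0.011) (KCNMA1 0.071 with the block). FGFR4 lost the call without replicate 2 of T47D-PA5, or replicate 2 or 3 of T47D-PA6 (adjusted p up to 0.064). TGFA and MFNG lost their calls without replicate 3 of T47D-PA5, or replicate 2 or 3 of T47D-PA6 (adjusted p up to 0.061). With the mean of its tested probes TGFA lost the call too (limma adjusted p = 0.6). FZD1 lost the call without replicate 3 of T47D-PA5 or T47D-PA6 (adjusted p up to 0.078). FZD9 lost the call without any replicate of T47D-PA5 or T47D-PA6, or replicate 2 or 3 of the empty vector (adjusted p up to 0.17). HEY2 and PDE2A lost their calls without replicate 2 or 3 of T47D-PA5 or T47D-PA6 (adjusted p up to 0.091). NRARP lost the call without replicate 3 of T47D-PA5, or replicate 2 of T47D-PA6 (adjusted p up to 0.057). PRKACB, PRKAR1A and KCNMA1 lost their calls without any replicate of T47D-PA5, or replicate 2 or 3 of T47D-PA6 or the empty vector (adjusted p up to 0.16). KCNS3 lost the call without replicate 2 of T47D-PA6 (adjusted p = 0.052).

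Several genes of lipid synthesis fell. Of 29 tested genes for cholesterol synthesis and uptake 0 rose and 6 fell, 20.7% against the 6.38% of all genes called lower, with a median of -0.14. At an unadjusted p under 0.05 these counts were also 0 and 6. The largest falls were in HSD17B7 (-1.31, adjusted p = 0.0069), FDPS (-0.99, adjusted p = 0.0065) and PMVK (-0.84, adjusted p = 0.01), enzymes of the sterol pathway, and these 3 lie in the chromosome 1 stretch, where 46.7% of genes fell. FDPS, which makes farnesyl diphosphate, had signals of 13664, 17563 and 17616 in T47D-PA5 and 7712, 8094 and 8689 in T47D-PA6, with no overlap. Of 32 tested genes for fatty acid synthesis and handling 2 rose, CD36 and DGAT1 (0.45, adjusted p = 0.047, 0.066 with the block), and 6 fell: the carboxylase ACACA (-0.73, adjusted p = 0.0034), the desaturase FADS2 (-0.71, adjusted p = 0.0059), the triglyceride enzyme DGAT2 (-1.13, adjusted p = 0.02), ACLY, FASN and the regulator SREBF1. FADS2, which makes polyunsaturated fatty acids, had signals of 1799.8, 1781 and 1805 in T47D-PA5 and 1056, 1104 and 1136 in T47D-PA6, all T47D-PA6 arrays below all of T47D-PA5. Within slide 1 the median of the cholesterol genes was -0.39 and within slide 3 it was -0.04. DGAT1 and FASN lost their calls without any replicate of T47D-PA5 or T47D-PA6, or replicate 2 or 3 of the empty vector (adjusted p up to 0.16). DGAT2 and SREBF1 lost their calls without replicate 3 of T47D-PA5, or replicate 2 or 3 of T47D-PA6 (adjusted p up to 0.067). ACLY lost the call without any replicate of T47D-PA5, or replicate 2 or 3 of T47D-PA6 (adjusted p up to 0.11).

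Of 28 tested genes of the unfolded protein response 7 rose and 0 fell, where 3.77% of all genes rose, with a median of 0.17. At an unadjusted p under 0.05 there were 11 higher and 2 lower, and by the methods' t-test, adjusted, 1 and 0. DDIT3 (CHOP), a transcription factor induced by ATF4, had signals of 943, 843 and 849.9 in T47D-PA5 and 2357, 2932 and 2877 in T47D-PA6, a log2 difference of 1.63 ± 0.23 (adjusted p = 0.0053), and the pseudokinase TRIB3 had 21154, 14734 and 15563 in T47D-PA5 and 31070.0, 41675 and 40496 in T47D-PA6 (1.14 ± 0.17, adjusted p = 0.0066). The arrays of the lines did not overlap in either. The factor ATF4 (0.66, adjusted p = 0.036, 0.056 with the block), HERPUD1 (0.68, adjusted p = 0.021) and the glutathione-degrading CHAC1 (2.15, adjusted p = 0.031) rose as well. CHAC1 had signals of 1214, 275 and 278 in T47D-PA5 and 1925, 2016 and 2079 in T47D-PA6, so replicate 1 of T47D-PA5 lay between the other T47D-PA5 arrays and T47D-PA6. SLC7A11, the cystine transporter that ATF4 and NRF2 both induce, had signals of 546, 194 and 208 in T47D-PA5 and 728, 1393 and 1274 in T47D-PA6 (1.96, adjusted p = 0.031, 0.056 with the block). Of 31 tested NRF2 and antioxidant genes 3 rose, NQO1 (0.81, adjusted p = 0.0065) among them, and PRDX6 (-0.46, adjusted p = 0.021) fell, the last in the chromosome 1 stretch. Among these 31 genes 12.9% were called, near the 10.2% of all genes. ATF4 and CHAC1 lost their calls without replicate 2 or 3 of T47D-PA5 or T47D-PA6 or the empty vector (adjusted p up to 0.13). HERPUD1 lost the call without replicate 3 of T47D-PA5, or replicate 2 or 3 of T47D-PA6 (adjusted p up to 0.086). SLC7A11 and PRDX6 lost their calls without replicate 2 or 3 of T47D-PA5 or T47D-PA6 (adjusted p up to 0.12).

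Calls in other stress lists were below the 10.2% of all genes for hypoxia and heat shock and near it for metallothioneins and zinc transporters. Of 39 tested genes of the hypoxia response and glycolysis (5.13% called) 1 rose, EGLN3 (at least 3.19-fold from below background, adjusted p = 0.016), and 1 fell, STC1 (-1.17, adjusted p = 0.036). Of 26 heat shock proteins (3.85%) 1 fell, BAG3 (-0.38, adjusted p = 0.047, 0.058 with the block). Among 28 metallothioneins and zinc transporters MT1B (1.68, adjusted p = 0.047) and SLC39A14 (0.65, adjusted p = 0.031) rose and SLC39A1 (-1.08, adjusted p = 0.0065) fell, the last in the chromosome 1 stretch; metallothioneins are alike in sequence, so MT1B is uncertain. EGLN3 lost the call without replicate 2 or 3 of T47D-PA5 or T47D-PA6 (adjusted p up to 0.066). STC1 lost the call without any replicate of T47D-PA5, or replicate 2 or 3 of T47D-PA6, or replicate 3 of the empty vector (adjusted p up to 0.13). BAG3 lost the call without any replicate of T47D-PA5 or T47D-PA6, or replicate 2 or 3 of the empty vector (adjusted p up to 0.13). MT1B lost the call without any replicate of T47D-PA5, or replicate 2 or 3 of T47D-PA6 or the empty vector (adjusted p up to 0.16). SLC39A14 lost the call without replicate 2 or 3 of T47D-PA5 or T47D-PA6 or the empty vector (adjusted p up to 0.12).

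Of 70 tested genes of mitosis and DNA replication 0 rose and 9 fell, 12.9% against the 6.38% of all genes called lower, and 61 did not pass. Of the 70, 4 were above 0, with a median of -0.26. At an unadjusted p under 0.05, 0 were higher and 23 lower. CENPF, a kinetochore protein of mitosis, had signals of 19854, 21374 and 19741 in T47D-PA5 and 9171, 9512 and 9715 in T47D-PA6 (-1.10 ± 0.18, adjusted p = 0.008) and NUF2 (-1.14, adjusted p = 0.026) had a fall of like size, both in the chromosome 1 stretch. The replication factors MCM10 (-0.87, adjusted p = 0.039, 0.063 with the block) and E2F2 (-0.81, adjusted p = 0.04) fell as well. The slides differed: the median was -0.55 within slide 1, where 0 of 70 were above 0, and -0.11 within slide 3, where 21 were. Of 60 tested DNA repair genes 1 rose, the damage kinase ATM (1.04, adjusted p = 0.026), and 9 fell, such as PARP1 (-1.03, adjusted p = 0.0048), FANCC (-0.94, adjusted p = 0.0038) and BRCA2 (-1.04, adjusted p = 0.035, 0.062 with the block), with a median of -0.20; 1 of the 9 lies in the chromosome 1 stretch and 2 in the chromosome 9 stretch. PARP1, which marks DNA breaks, had signals of 5442, 4769.9 and 4586 in T47D-PA5 and 2654, 2420.4 and 2195 in T47D-PA6. Of 27 p53 targets and cyclin-dependent kinase inhibitors PLK2 (1.05, adjusted p = 0.0099) and SESN2 (0.51, adjusted p = 0.047) rose and PHLDA3 (-0.71, adjusted p = 0.01), in the chromosome 1 stretch, and SESN1 (-0.67, adjusted p = 0.041) fell (SESN2 0.068 with the block). Among the repair genes 16.7% and among the p53 targets and cyclin-dependent kinase inhibitors 14.8% were called, against 10.2% of all genes. NUF2 lost the call without replicate 2 or 3 of T47D-PA5 or T47D-PA6 (adjusted p up to 0.09). MCM10 lost the call without any replicate of T47D-PA5 or T47D-PA6, or replicate 3 of the empty vector (adjusted p up to 0.12). E2F2 lost the call without any replicate of T47D-PA5, or replicate 2 or 3 of T47D-PA6 or the empty vector (adjusted p up to 0.14). ATM lost the call without any replicate of T47D-PA5, or replicate 2 or 3 of T47D-PA6 (adjusted p up to 0.1). It also lost the call when the mean of its tested probes was taken. BRCA2 lost the call without any replicate of T47D-PA5, or replicate 2 or 3 of T47D-PA6, or replicate 3 of the empty vector (adjusted p up to 0.13). SESN2 lost the call without replicate 2 or 3 of T47D-PA5 or T47D-PA6 or the empty vector (adjusted p up to 0.16). PHLDA3 lost the call without replicate 2 of T47D-PA6 (adjusted p = 0.052). SESN1 lost the call without replicate 2 or 3 of T47D-PA5 or the empty vector, or any replicate of T47D-PA6 (adjusted p up to 0.14).

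Few luminal genes were called. Of 17 tested luminal transcription factors, 13 keratins and 22 HOX genes 0 were called in either direction, where 10.2% of all genes were. At an unadjusted p under 0.05 the counts were 1 higher and 0 lower of the factors, 0 and 1 of the keratins and 2 and 2 of the HOX genes, and the methods' t-test, adjusted, called 0. GATA3, a defining luminal factor, had signals of 19309, 27409 and 27039 in T47D-PA5 and 28339, 27605 and 27373 in T47D-PA6 and the lines overlapped. Of 28 steroid receptors and estrogen targets 2 rose and 1 fell, a share called that is near the 10.2% of all genes. TFF1, an estrogen-induced trefoil factor, had signals of 1970.0, 1659 and 1696 in T47D-PA5 and 5303, 3533 and 3817 in T47D-PA6. Its log2 difference was 1.23 ± 0.16 (adjusted p = 0.0043). CTSD (0.91, adjusted p = 0.005) rose as well, and the progesterone receptor PGR (-0.69, adjusted p = 0.035) fell (0.059 with the block). Of 18 genes of the epithelial-mesenchymal switch the intermediate filament VIM rose from a low level, with signals of 23.03, 25.9 and 26.4 in T47D-PA5 and 34.7, 91.6 and 97.3 in T47D-PA6 (1.43 ± 0.35, adjusted p = 0.035). The tight junction gene CLDN7 (0.48, adjusted p = 0.021) rose too, and the mesenchymal factor TWIST1 (-0.79, adjusted p = 0.012) fell. Of 20 death receptors, ligands and caspases 2 rose, TNFRSF1A (0.45, adjusted p = 0.022) among them, and MCL1 (-0.63, adjusted p = 0.028) fell, the last in the chromosome 1 stretch. THY1, a fibroblast marker that these cells express, fell, with signals of 577, 151 and 200.4 in T47D-PA5 and 92.6, 46.6 and 59.5 in T47D-PA6 (adjusted p = 0.03), and of 3 tested basal markers MYLK (-0.84, adjusted p = 0.044) fell (0.072 with the block). PGR lost the call without replicate 2 or 3 of T47D-PA5 or T47D-PA6 or the empty vector (adjusted p up to 0.13). VIM and MYLK lost their calls without any replicate of T47D-PA5, or replicate 2 or 3 of T47D-PA6 or the empty vector (adjusted p up to 0.15). CLDN7, TNFRSF1A and MCL1 lost their calls without replicate 2 or 3 of T47D-PA5 or T47D-PA6 (adjusted p up to 0.1). TWIST1 lost the call without replicate 3 of T47D-PA5 (adjusted p = 0.054). THY1 lost the call without replicate 3 of T47D-PA5 or the empty vector, or replicate 2 or 3 of T47D-PA6 (adjusted p up to 0.11).

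Of 15 tested cancer-testis antigens 4 rose and 1 fell (33.3% called, against 10.2% of all genes). XAGE2 had signals of 229.6, 164 and 164 in T47D-PA5 and 1130.1, 1009 and 1115 in T47D-PA6 (2.56, adjusted p = 0.018), and PAGE2 rose by at least 4.24-fold from below background (adjusted p = 0.016), both X-linked genes with close copies. MAGEA8 (1.89, adjusted p = 0.021) rose and BAGE (-1.72, adjusted p = 0.018) fell. Among 22 S100 proteins and annexins, calcium-binding proteins whose S100 genes are mostly clustered on chromosome 1, 2 rose and 7 fell, and all 7 falls lie in the chromosome 1 stretch. S100A10 had signals of 42346, 39940.0 and 39862 in T47D-PA5 and 22529.6, 17861 and 17408 in T47D-PA6 (-1.09 ± 0.12, adjusted p = 0.0025). S100A14, inside the same cluster, went the other way, with signals of 155, 109 and 113 in T47D-PA5 and 582, 906 and 902 in T47D-PA6 (2.65 ± 0.22, adjusted p = 0.0009). Of 13 tested genes of the parathyroid hormone system and neighbours of PTH on chromosome 11 1 rose, PTHLH (0.80, adjusted p = 0.013), the parathyroid hormone-related peptide, and 0 fell. Of 76 cytosolic ribosomal proteins 1 fell, RPS27 (-0.48, adjusted p = 0.045), in the chromosome 1 stretch (0.061 with the block). The share called was 40.9% for S100 and annexin, 7.69% for parathyroid hormone and 1.32% for ribosomal genes, against 10.2% of all genes. XAGE2 and BAGE lost their calls without replicate 2 or 3 of T47D-PA5 or T47D-PA6 (adjusted p up to 0.067). PAGE2 lost the call without replicate 3 of T47D-PA5, or replicate 2 or 3 of T47D-PA6 (adjusted p up to 0.064). MAGEA8 lost the call without replicate 2 or 3 of T47D-PA6 (adjusted p up to 0.075). PTHLH lost the call without replicate 2 of T47D-PA6 (adjusted p = 0.057). RPS27 lost the call without any replicate of T47D-PA5, or replicate 2 or 3 of T47D-PA6 or the empty vector (adjusted p up to 0.15).

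**Figure D4:**
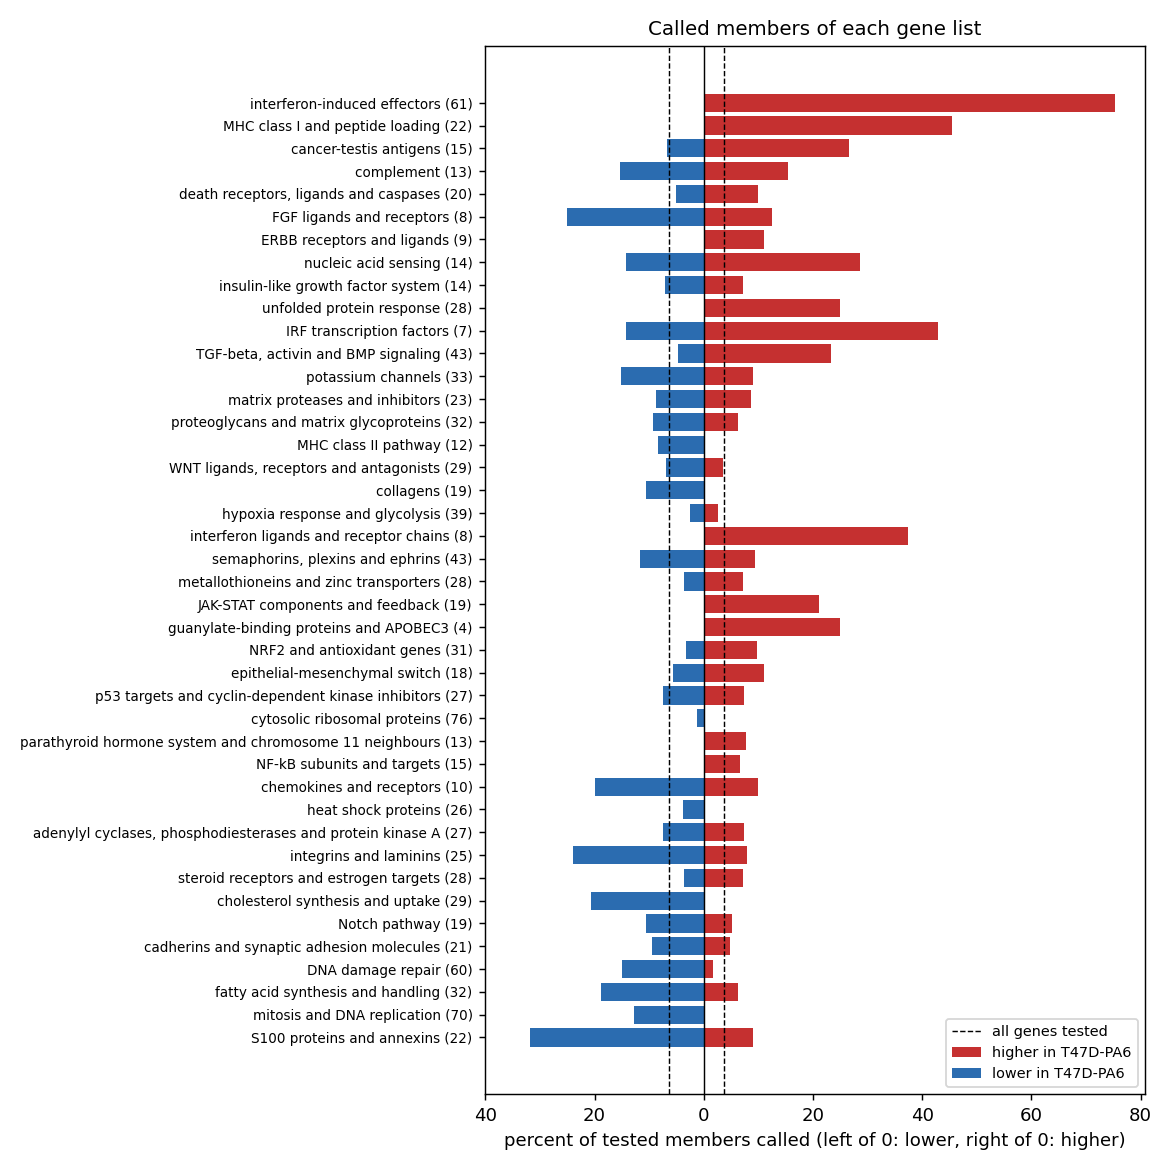
Share of the tested members of each gene list that were called higher (red, to the right) or lower (blue, to the left) in T47D-PA6, in percent, with the number tested in brackets and the lists ordered by their median log2 difference. Dashed lines are the shares over all genes, 3.77% higher and 6.38% lower; the interferon-induced effectors (46 of 61) and class I presentation genes (10 of 22) reach furthest to the right, and lists with no call are left out.

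The falls were not spread evenly over the chromosomes. In windows of 10 Mb (hg19) with at least 20 tested genes, 277 in all, the median log2 difference was below -0.2 in 24 and above 0.2 in 4. The lowest of them lay in 2 stretches, which were chosen after these medians were seen. On chromosome 1 from 140 to 250 Mb, 416 of 891 tested genes fell (46.7%), 9 rose and 742 were below 0. On chromosome 9 from 70 to 110 Mb, 70 of 177 fell (39.5%), 3 rose and 139 were below 0. The 2 stretches together held 486 of the 1259 genes that fell, 38.6%. Outside them 731 genes rose and 773 fell of 18651, so the excess of falls over rises lies mostly inside.

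Most of these changes were small. On chromosome 1 the median was -0.57, and 304 of the 416 falls were under 2-fold. Relative to the mean of T47D-PA5, the median gene of this stretch stood at -0.02, 0.01 and 0.01 on the T47D-PA5 arrays, at -0.47, -0.62 and -0.62 on the T47D-PA6 arrays and at -0.35, -0.31 and -0.31 on the empty-vector arrays, so the empty vector lay between the lines. On chromosome 9 it stood at -0.35, -0.53 and -0.56 on the T47D-PA6 arrays and at 0.03, -0.06 and -0.05 on the empty-vector arrays, so there T47D-PA6 alone stood apart. Within slide 1 the medians were -0.44 and -0.40, and within slide 3 they were -0.62 and -0.57. Whether the DNA of these stretches differs between the lines was not tested.

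Beside LAMC1 and KCNK1, the leading falls on chromosome 1 were DENND1B, a vesicle traffic regulator, and PEAR1, a platelet receptor. DENND1B had signals of 208, 211 and 223 in T47D-PA5 and 56.8, 15.2 and 12.3 in T47D-PA6 (-3.28, adjusted p = 0.0064), and PEAR1 had 27.4, 31.7 and 27.9 in T47D-PA5 and 3.05, 3.02 and 3.05 in T47D-PA6, at least 2.48-fold lower (adjusted p = 7.6e-05). On chromosome 9 they were the actin-capping TMOD1 (-2.04, adjusted p = 0.045), the endoplasmic reticulum protein ERP44 (-1.55, adjusted p = 0.034) and ZNF367 (-1.49, adjusted p = 0.012). ANXA1, an annexin with anti-inflammatory action, rose within that stretch, with signals of 391, 264 and 291 in T47D-PA5 and 747, 1316 and 1426 in T47D-PA6 (1.85 ± 0.27, adjusted p = 0.006). TMOD1 lost the call without any replicate of T47D-PA5, or replicate 1 or 3 of T47D-PA6, or replicate 3 of the empty vector (adjusted p up to 0.12). ERP44 lost the call without any replicate of T47D-PA5, or replicate 2 of T47D-PA6, or replicate 2 or 3 of the empty vector (adjusted p up to 0.11). ZNF367 lost the call without replicate 3 of T47D-PA6 (adjusted p = 0.052).

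**Figure D5:**
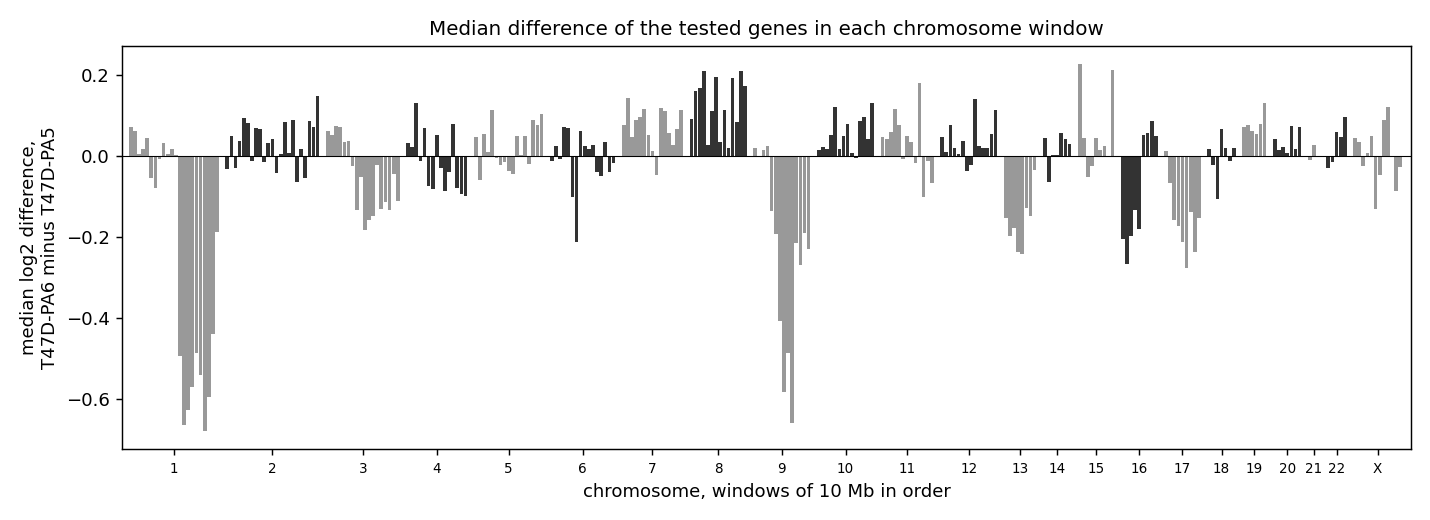
Median log2 difference of the tested genes (vertical axis) in each of 277 windows of 10 Mb, in order along chromosomes 1 to 22 and X (horizontal axis, shades alternate by chromosome). The windows from the long arm of chromosome 1 and from the middle of chromosome 9 are the lowest, down to -0.68, and those of chromosome 8 lie slightly above 0.

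Smaller shifts stood elsewhere. On chromosome 17 from 40 to 80 Mb the median was -0.21, 56 of 575 genes fell and 11 rose. These are 9.74% and 1.91%, against 6.38% and 3.77% of all genes. Against this shift, TSPOAP1, which rose by at least 2.94-fold (adjusted p = 0.00015), and the interferon-induced LGALS3BP (1.44, adjusted p = 0.0067) were higher, and DNAH17 (-1.56, adjusted p = 0.0034) and C1QL1 (-1.16, adjusted p = 0.014) were lower. Chromosome 8 had the highest median of any chromosome, 0.13, with 33 genes up and 6 down of 692. The share up, 4.77%, was near the 3.77% of all genes, and the share down was 0.867% against 6.38%. The chromosome's median was 0.03 within slide 1 and 0.17 within slide 3, so little of this shift was seen on slide 1. The rises were led beside CRH by SAMD12 (3.22, adjusted p = 0.008) and PNMA2 (2.46, adjusted p = 0.042). C1QL1 lost the call without replicate 3 of T47D-PA5 or T47D-PA6 (adjusted p up to 0.059). PNMA2 lost the call without replicate 1 or 2 of T47D-PA5, or replicate 2 or 3 of T47D-PA6 or the empty vector (adjusted p up to 0.15).

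A window of chromosome 15 from 20 to 30 Mb held 9 rises and 0 falls among 59 tested genes. The rises were 15.3%, against 3.77% of all genes, which had 6.38% falls. The window's median was 0.07 within slide 1 and 0.24 within slide 3. Relative to the mean of T47D-PA5, its median gene stood at 0.11, 0.24 and 0.19 on the T47D-PA6 arrays. On the empty-vector arrays it stood at 0.20, 0.05 and 0.18, so the empty vector lay nearer to T47D-PA6 on 2 of 3 arrays. Small nucleolar RNAs of the SNORD116 cluster, which are expressed from the paternal copy of an imprinted region, made up 5 of the 9 rises. SNORD116-19 had signals of 170.2, 204 and 258 in T47D-PA5 and 808, 982 and 1012 in T47D-PA6 (chr15:25328768-25328827), a log2 difference of 2.16 ± 0.18 (adjusted p = 0.0009). SNORD116-6 had 27.8, 35.9 and 38.7 in T47D-PA5 and 176, 155 and 149 in T47D-PA6 (2.24, adjusted p = 0.0013). All T47D-PA6 arrays were above all of T47D-PA5 in both. The other members named by the rule were SNORD116-27 (2.07, adjusted p = 0.016) and SNORD116-11, at least 3.91-fold higher from below background (adjusted p = 0.0021). The copies of this cluster are near-identical, so a probe may read several of them and the single genes are uncertain. SNORD116-27 lost the call without replicate 3 of T47D-PA5, or replicate 2 or 3 of T47D-PA6 (adjusted p up to 0.068).

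Genes with several probes did not always give 1 answer. Of 4619 genes with several tested probes 819 had at least 1 probe called in a fit over all tested probes, 253 had all probes called in 1 direction, and 9 had probes called in opposite directions. In SYNPO, an actin-associated protein, one probe had a log2 difference of 0.69 (adjusted p = 0.031) and another -1.37 (adjusted p = 0.032). In the kinase WNK1 the values were 0.98 (adjusted p = 0.0087) and -0.53 (adjusted p = 0.025), in the interferon-induced RNA sensor ZNFX1 0.57 (adjusted p = 0.026) and -0.52 (adjusted p = 0.03), in USP31 0.50 (adjusted p = 0.045) and -0.46 (adjusted p = 0.021), and in RPP38 0.33 (adjusted p = 0.047) and -0.49 (adjusted p = 0.043). For these 5 genes no direction is given. With the mean of a gene's tested probes in place of the brightest, 8 named genes lost their calls. They were IRF9, TGFA, ADAM10, ROBO2, PRKACB, PHLDA3, ATM and BAGE.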

How the data were processed

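Total RNA of 9 samples was labelled in 1 color and hybridized to Agilent human arrays. The intensities used here are those the authors deposited after quantile normalization, and log2 of them was taken. Feature Extraction is version 10.7.1.1 per the file headers and 9.5.1.1 per the labels; probe positions are hg19. Columns of per-sample values left unused number 0. Probe names were matched to RefSeq as follows: 31127 probes through the symbol, 3416 through an accession and 475 through a synonym, while 23183 kept the file's name.

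Probes had to be well above background on all 3 arrays of a line. A gene with several such probes is represented by the brightest over the 6 arrays. The T47D-PA6 minus T47D-PA5 contrast was fitted with limma 3.58.1 in R 4.3.3 (with the package data.table, version 1.17.8) over all 9 arrays, so that the lines share 1 estimate of spread, with Benjamini-Hochberg adjustment over 19719 genes at 0.05. Where one line was below background on all arrays, the fold is a bound. Tested on simulated data of 19719 genes, the fit called 64 of 100 genes changed by 1 log2 unit, 91 of 100 changed by 2, and 11 others. The simulated noise was independent between arrays, with no difference between slides or scan runs, so these counts may not hold for the real arrays.

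Same-numbered arrays of the lines deviated together (correlations 0.26, 0.15 and 0.17 across genes), and replicate number was used as a block. The crosswise values of replicates 2 and 3, 0.15 and 0.22, were of like size. These correlations therefore set replicate 1 apart but do not pair replicates 2 and 3 by number. Replicate 2 was on slide 2 for T47D-PA5 and on slide 3 for T47D-PA6.

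The members and lists were chosen with earlier results of these data known. Named genes were the 10 largest changes in each direction, the 5 largest bounds, up to 4 called members of a list and up to 4 genes of a chromosome stretch; further list members, KYNU and the uncalled effectors were named after their values were seen. Some genes that the rule names are not reported here. Alternatives were other normalizations, filters, blocks, the methods' t-test, a mean over probes and leaving out each array.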

Additional observations from a re-analysis of the deposited data

How the results depend on the processing

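The scanner signals with quantile normalization gave 1992 called genes, and 1985 of these were among the 2002. With the 75th percentile shift there were 1832, with normexp 2257, with probes above background on all 6 arrays 1783, with the 6 arrays alone 1787, with slide as a block 2028, with an intensity trend 2274 and with the mean of a gene's probes 2053. The fit to the 6 arrays alone called 35 effectors higher, and 1491 of its calls were among the 2002. With no filter on dim probes 1270 genes were called, 457 higher and 813 lower, and 25 effectors rose. With scan run as a block there were 3599 (1410 higher, 2189 lower). In the later scan run alone (replicates 2 and 3 of each line, the empty vector included) there were 7192 (3452 and 3740), with 1 effector, TDRD7, lower. The methods' t-test called 808 genes after Benjamini-Hochberg adjustment (297 and 511), with 4 effectors higher and 1, SP100, lower, and 4818 without adjustment (1988 and 2830), with 1 effector lower. The cause of these shifts was not tested. By the ratio definition of above 2 or below 0.6, 1571 genes differed, 7.97% of those tested.

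Leaving out 1 array gave 749 to 2996 called genes, 246 to 1312 higher and 495 to 1732 lower, and 25 to 48 effectors higher with 0 lower. Of 158 named genes that were called, 79 kept the call without any 1 array and 79 lost it without at least 1. The arrays whose removal ended the most of these calls were replicate 2 of T47D-PA6 (72), replicate 3 of T47D-PA6 (70) and replicate 3 of T47D-PA5 (68), against 8 for replicate 1 of T47D-PA6.

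With the replicate number as a block 2493 genes were called, 946 higher and 1547 lower, and 1805 of them were among the 2002. The block ended the calls of 13 genes named by the rule and of ATF4 and DGAT1, whose values stand beside them, and changed no other call of a gene named by the rule and reported here.

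Over the alternatives 3658 values of named genes were computed, and 7 changed sign, all of genes that were not called. KRT18 turned to 0.155 in the later scan run alone and ranged from -0.0612 to 0.0939 over the fits that left out 1 array. KRT19 stood at 0.0004 with the 75th percentile shift and 0.0 with normexp, and ranged from -0.0656 to 0.0. ELF5 stood at -0.0444 in the later scan run alone. Each line has 3 arrays and is 1 picked population, which limits the precision and what a difference can be attributed to.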
